A study of Mus musculus with 14 samples.

Results

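Antigen presentation and interferon response genes were followed in the retinal pigment epithelium (RPE) of mice with a Cre-mediated deletion of Clic4 in this cell layer. The 37 genes, of 42687 in the count table, were taken by name: 11 of the MHC class I pathway, 6 of the MHC class II pathway and 20 of the interferon response. The rule names genes and uses no measured value, but the choice of genes was made with earlier results of these data known. Each of the 37 matched 1 gene identifier, and all 37 passed the filter on low counts in every comparison.

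RNA was sequenced from the RPE of 14 C57BL/6J males at 3 months of age, 1 library per mouse with the RPE of both eyes pooled. The libraries fall into 3 sets, each with KO mice of its own, whose genotype in all 7 was Best1-Cre+/-; Clic4f/f. The WT set holds 3 wild type (WT) and 3 KO mice, the Ctrl set 2 Clic4f/f (Ctrl) and 2 KO mice, and the CreCtrl set 2 Best1-Cre+/- (CreCtrl) and 2 KO mice. CLIC4 belongs to the chloride intracellular channel family of proteins, and whether it acts as a channel is disputed. Cre in these mice is driven by the promoter of Best1, a gene of the RPE, so that the CreCtrl mice carry Cre without the floxed allele and the Ctrl mice the floxed allele without Cre. Each set has 1 control genotype, so a difference between sets and a difference between control genotypes cannot be told apart.

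MHC class I molecules present peptides made inside a cell to CD8 T cells. The peptides are cut by the proteasome, carried into the endoplasmic reticulum by the TAP transporter and loaded there onto a heavy chain paired with beta-2-microglobulin. MHC class II molecules present peptides taken up from outside to CD4 T cells and are found mainly on macrophages, dendritic cells and B cells. Interferons raise many genes of both pathways through STAT and IRF transcription factors, together with a set of antiviral genes. The healthy RPE forms part of the blood-retinal barrier of the eye and makes little MHC class II.

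Library totals ranged from 9828293 to 32384166 counts. Clic4 itself was lower in the KO libraries of every set, with 226, 229.8 and 218 CPM in WT against 33.1, 23.3 and 17.9 in the KO of that set, 71.4 and 62.1 in Ctrl against 9.78 and 33.9 in KO, and 86.5 and 108 in CreCtrl against 13.7 and 30.5 in KO. CPM are counts scaled to the size of the library, with TMM factors over all 14 libraries. The fall of Clic4 passed the test in the WT set (log2 fold change -3.32 ± 0.22 SE, edgeR adjusted p = 3.33e-05) and in the CreCtrl set (-2.16 ± 0.36 with adjusted p = 0.0132), and in the Ctrl set it had -1.61 ± 0.58 with adjusted p = 0.333. The summed level of 10 RPE markers, such as Rpe65 and Rlbp1, was 16531 to 23900 CPM in WT, 49295 to 59935 CPM in the other 4 controls and 75419 to 85214 CPM in the 7 KO libraries. Best1, the member of that list whose promoter drives Cre, had only 1.19 to 5.94 CPM in the 14 libraries and moved against the sum. In the fit over all 14 libraries described below, 9 of the 10 markers were called higher in KO and 1, Best1, lower. Of all genes tested there, 21.0% were called higher and 19.6% lower. Markers of fibroblasts went the other way from the RPE sum, at 8137 to 8406 CPM in WT, 1319 to 3052 CPM in the other controls and 148.8 to 857 CPM in KO. Endothelial, pericyte, myeloid and other markers are given further below.

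Of the 37 genes, 20 fell and 2 rose in KO against WT (edgeR quasi-likelihood test, adjusted p under 0.05 over all genes tested), where 19.0% of the 15428 genes tested were called lower and 16.1% higher. Against CreCtrl 17 fell and 0 rose, with 12.2% of 15963 genes called lower and 3.60% higher. Without CreCtrl 2 the 17 became 9 (1063 of 16613 genes lower), with the calls of Psmb8, Psmb9, Nlrc5, H2-DMa, Ciita, Stat2, Oasl2 and Parp14 lost, and in 1 fit of all 14 libraries they became 4 (506 of 17662). Against Ctrl 0 of the 37 genes were called, and 0 of all 15287 genes tested (0%). At an unadjusted p under 0.05, 7 of the 37 were lower there and 0 higher, with 11.4% of all genes lower, and DESeq2 called 4 of the 37 lower and 1181 of all 15602 genes it tested. In the fit of all 7 KO against all 7 control libraries with the set as a covariate (set-adjusted), 23 fell and 2 rose, with 19.6% of 14925 genes lower and 21.0% higher. Without the WT set, which holds 6 of the 14 libraries, that fit called 8 lower and 0 higher, and 1000 and 81 of all 15232 genes. The median log2 fold change of the 37 was -1.30, -0.23 and -0.80 for WT, Ctrl and CreCtrl as control, beside -0.08, 0.01 and -0.02 for all genes tested.

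**Figure D1:**
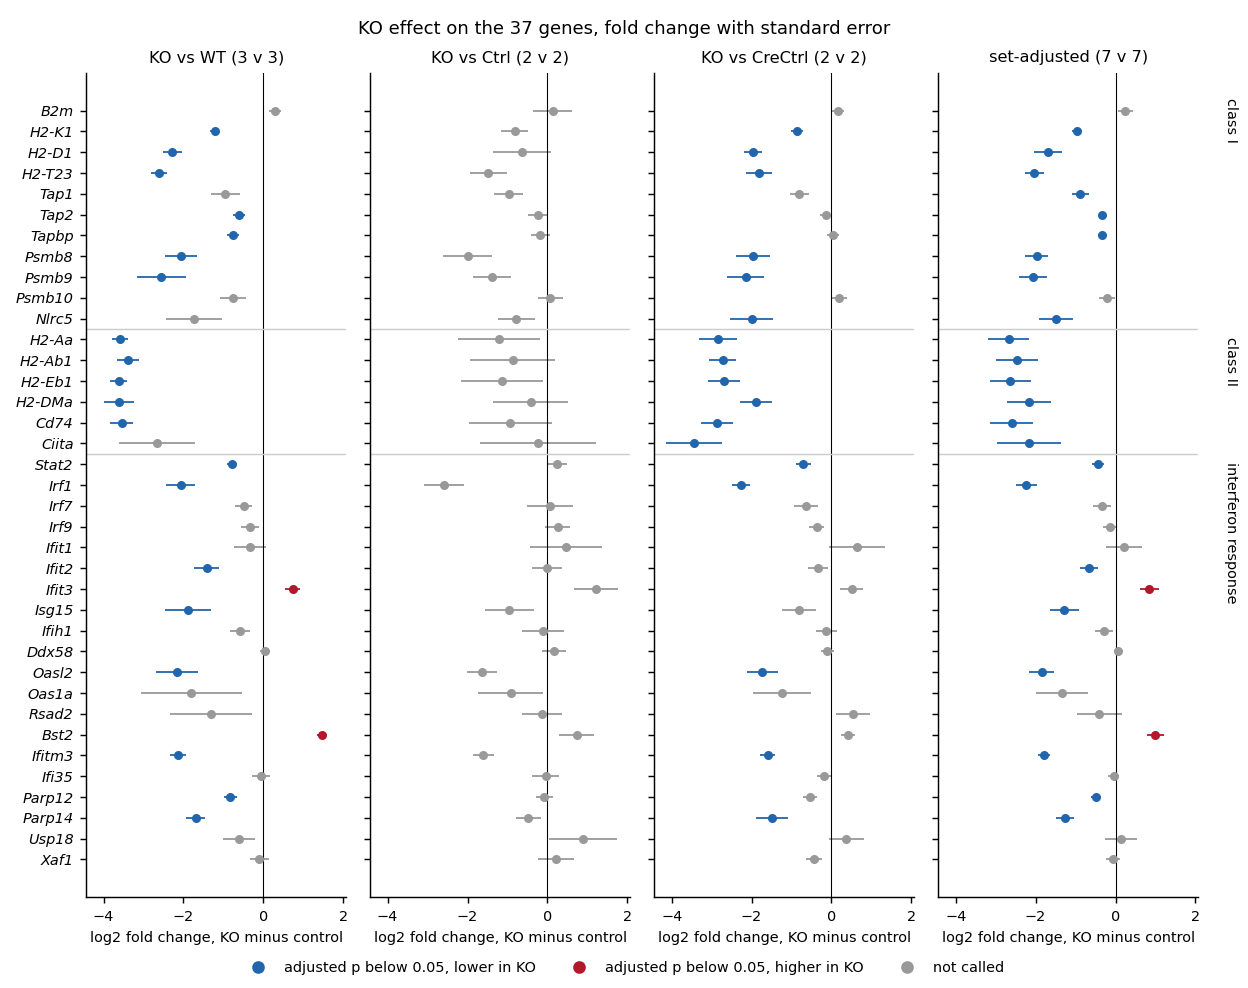
Log2 fold change of each of the 37 genes (KO minus control, horizontal axis) with its standard error, in the 3 sets and in the set-adjusted fit. Blue points are genes with adjusted p under 0.05 and lower in KO, red points those higher, and grey points those not called. H2-Eb1 and H2-DMa lie farthest to the left for WT and Ciita for CreCtrl, B2m and Psmb10 are grey throughout, and Ifit3 and Bst2 are the only red points.

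The libraries were also compared without a model. All KO libraries lay below all controls for 25 of the 37 genes against WT (24.5% of all genes tested), 13 against Ctrl (22.7%) and 27 against CreCtrl (34.9%). They lay above all controls for 4, 1 and 4 of the 37 (28.6%, 18.3% and 37.2% of all genes tested). All KO libraries were below all controls in all 3 sets for 12 genes, where 10.6% of the 14423 genes tested in each did: H2-K1, H2-T23, Tap2, Psmb8, Psmb9, Nlrc5, Irf1, Isg15, Oasl2, Ifitm3, Parp12 and Parp14. They belong to the class I pathway (6) and to the interferon response (6), and none is a class II gene. None of the 37 (0) had all KO libraries above all controls in all 3 sets, against 9.55% of all genes.

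Of the 17 MHC pathway genes, 12 lie within 2.12 Mb of chromosome 17, at chr17:33915899-36032855 (GRCm38), the mouse H2 complex. In it Psmb9, Tap1, Psmb8 and Tap2 lie next to each other, and the annotated genes Psmb9 and Tap1, which are read from opposite strands, overlap by 212 bases. The strand setting of the count is not given in the sources used here, so reads from that overlap cannot be assigned to one of them. Reads of the class I heavy chains, which are related in sequence, could also have been lost or split among H2-K1, H2-D1 and the H2-Q genes. Single values of these genes are uncertain to that extent.

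Among the class I genes, the heavy chains fell in the set-adjusted fit and the light chain was not called. H2-K1 and H2-D1 encode the classical heavy chains that show peptides to CD8 T cells. H2-K1 had 333, 340.2 and 305 CPM in WT against 148.97, 169 and 146 in the KO of that set, 173 and 234 in Ctrl against 83.6 and 147 in KO, and 153 and 156 in CreCtrl against 84.1 and 90.9 in KO. Every KO library was below every control of its own set, and the set-adjusted level in KO was 51.3% of the control (log2 fold change -0.96 ± 0.13 SE, edgeR adjusted p = 0.000123). H2-D1 had 533, 598 and 479 CPM in WT against 128, 160.4 and 77.9 in the KO of that set, 226 and 228 in Ctrl against 45.3 and 247 in KO, and 158 and 226 in CreCtrl against 45.5 and 55.6 in KO. Its KO libraries were lower in the WT set (-2.28 ± 0.24 with adjusted p = 0.000202) and the CreCtrl set (-1.96 ± 0.23 with adjusted p = 0.00517), while in the Ctrl set KO 2, at 247 CPM, was above both controls and KO 1 far below them. The set-adjusted log2 fold change of H2-D1 was -1.69 ± 0.35 with adjusted p = 0.00218, and without the WT set it was -1.31 and not called (adjusted p = 0.155).

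H2-T23 encodes Qa-1, a non-classical heavy chain that natural killer cells read. It had 67.0, 103 and 91.3 CPM in WT against 14.4, 18.2 and 14.6 in the KO of that set, 22.4 and 23.1 in Ctrl against 4.96 and 11.3 in KO, and 22.7 and 29.7 in CreCtrl against 5.45 and 9.63 in KO. It showed the largest fall of the class I heavy chains among the 37 genes, to 24.5% of the control level (log2 fold change -2.03 ± 0.23 SE, edgeR adjusted p = 4.22e-05), with no overlap between KO and control in any set. B2m, the light chain that every class I heavy chain binds (chr2:122147686-122153083), had 404, 563 and 536 CPM in WT against 692, 738 and 607 in the KO of that set, 653 and 1237 in Ctrl against 647 and 1425 in KO, and 551 and 539 in CreCtrl against 645 and 598 in KO. All KO libraries were above all controls in the WT and CreCtrl sets and the groups overlapped in the Ctrl set, yet B2m passed no test (set-adjusted 0.25 ± 0.18 with adjusted p = 0.31). KO 2 and Ctrl 2 of the Ctrl set were the highest, at 1425 and 1237 CPM, and the other 12 libraries lay between 404 and 738 CPM.

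The ratio of heavy to light chain was lower in KO. Per kilobase of exon, H2-K1 and H2-D1 together were 0.68, 0.531 and 0.465 times the level of B2m in WT and 0.124, 0.14 and 0.113 times in the KO of that set. The ratio was 0.193 and 0.117 in Ctrl and 0.0612 and 0.0878 in KO, and 0.177 and 0.224 in CreCtrl and 0.0616 and 0.0755 in KO. In each of the 3 sets every KO library was below every control. B2m had the highest level per kilobase of the 37 genes, with a median of 641 CPM per kb over the 7 controls and 753 over the 7 KO libraries, and H2-D1 moved from 88.3 to 30.2 CPM per kb.

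Genes of peptide transport and loading changed less. Tap1 and Tap2 encode the paired chains of the peptide transporter, and Tapbp encodes tapasin, which holds the transporter and the empty class I molecule together. Tap1 had 26.8, 22.8 and 32.1 CPM in WT against 15.6, 23.2 and 7.89 in the KO of that set, 21.1 and 25.8 in Ctrl against 15.1 and 8.89 in KO, and 15.4 and 13.4 in CreCtrl against 7.31 and 9.56 in KO. The groups did not overlap in the Ctrl and CreCtrl sets, KO 2 of the WT set lay inside the range of WT, and only the set-adjusted fit called Tap1 (log2 fold change -0.88 ± 0.21 with adjusted p = 0.0051). Tap2 had 44.3, 54.6 and 47.8 CPM in WT against 34.3, 35.5 and 36.8 in the KO of that set, 39.8 and 40.0 in Ctrl against 30.1 and 37.9 in KO, and 33.4 and 34.9 in CreCtrl against 31.8 and 31.6 in KO. All KO libraries were below the controls of their set by a small amount, which was called in the WT set (-0.60 ± 0.15 with adjusted p = 0.0137) and in the set-adjusted fit (-0.33 ± 0.10 with adjusted p = 0.017). The first of these calls was lost without KO 1 or KO 2 of the WT set. Tapbp fell in the WT set (-0.76 ± 0.14 with adjusted p = 0.00316), had 0.04 ± 0.15 with adjusted p = 0.869 in the CreCtrl set, and was near the threshold in the set-adjusted fit (-0.33 ± 0.12 with adjusted p = 0.0448), a call lost under 10 of the 14 single-library omissions.

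Of the 3 inducible proteasome subunits, Psmb8 and Psmb9 fell and Psmb10 was not called. These subunits replace the constitutive catalytic subunits Psmb5, Psmb6 and Psmb7 to form the immunoproteasome, which cuts peptides suited to class I. Psmb8 (beta5i) had 23.1, 34.2 and 27.1 CPM in WT against 7.41, 11.4 and 3.68 in the KO of that set, 12.4 and 23.01 in Ctrl against 2.35 and 6.50 in KO, and 5.35 and 9.46 in CreCtrl against 1.57 and 2.26 in KO. Psmb9 (beta1i) had 13.5, 13.5 and 14.9 CPM in WT against 4.63, 2.59 and 0.668 in the KO of that set, 5.86 and 7.43 in Ctrl against 2.67 and 2.45 in KO, and 4.02 and 7.62 in CreCtrl against 1.20 and 1.46 in KO. For both, no KO library reached the lowest control of its set, and the KO level was 25.4% and 23.9% of the control (set-adjusted -1.98 ± 0.29 with adjusted p = 0.000316 and -2.07 ± 0.36 with adjusted p = 0.00088). Psmb10 (beta2i) had 23.8, 28.3 and 24.3 CPM in WT against 9.80, 24.9 and 15.4 in the KO of that set, 15.3 and 12.6 in Ctrl against 15.1 and 14.3 in KO, and 13.2 and 12.4 in CreCtrl against 15.4 and 14.8 in KO. It was lower in 2 of the 3 KO libraries of the WT set, overlapped in the Ctrl set and was higher in both KO libraries of the CreCtrl set (set-adjusted -0.20 ± 0.20 with adjusted p = 0.452).

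The constitutive partners went the other way. Psmb5, Psmb6 and Psmb7 were all called higher in KO against WT (1.12 ± 0.25, 0.83 ± 0.13 and 1.47 ± 0.16) and in the set-adjusted fit (0.77 ± 0.21, 0.59 ± 0.12 and 0.89 ± 0.20), and 0 of 3 were called in the other 2 sets. Of all genes tested, 16.1% rose against WT, 21.0% in the set-adjusted fit, 3.60% against CreCtrl and 0% against Ctrl. The median log2 fold change of the 10 RPE markers was 1.72 against WT and 1.08 in the set-adjusted fit. The part of RPE content in these rises, and in the ratios that follow, was not tested. Within libraries, Psmb8 per kilobase was 0.498, 0.515 and 0.4 times Psmb5 in WT and 0.0682, 0.0677 and 0.0232 times in KO. In the Ctrl set the ratio was 0.217 and 0.425 in Ctrl and 0.0338 and 0.11 in KO, and in the CreCtrl set 0.0528 and 0.201 in CreCtrl and 0.0133 and 0.0187 in KO. The 2 groups were apart in every set. Over all 14 libraries the ratio of Psmb9 to Psmb6 also separated the genotypes, at 0.0170 to 0.0929 in the 7 controls and 0.00197 to 0.0147 in the 7 KO libraries. Psmb10 over Psmb7 overlapped between KO and control in the Ctrl set.

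**Figure D2:**
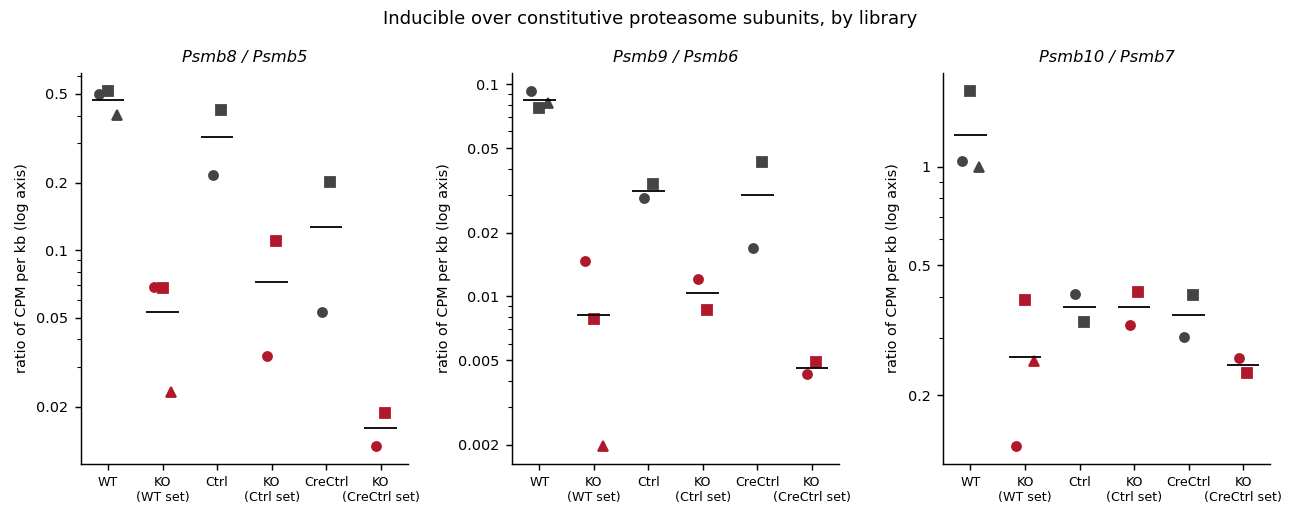
Ratio of each inducible proteasome subunit to its constitutive partner, per kilobase of exon, in each library (log axis). Grey symbols are control and red symbols KO libraries, circles, squares and triangles are replicates 1, 2 and 3, and bars are group means. KO libraries are below the controls of their own set for Psmb8/Psmb5 and Psmb9/Psmb6, and overlap with them for Psmb10/Psmb7 in the Ctrl set.

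Nlrc5, the transactivator that drives the class I genes, was measured at a low level. It had 9.27, 15.2 and 11.0 CPM in WT against 2.86, 8.11 and 0.869 in the KO of that set, 7.17 and 5.76 in Ctrl against 3.33 and 4.18 in KO, and 5.56 and 5.71 in CreCtrl against 2.189 and 0.730 in KO. All KO libraries were below their controls, and the test called it in the CreCtrl set (-2.001 ± 0.53 with adjusted p = 0.0471) and the set-adjusted fit (-1.49 ± 0.42 with adjusted p = 0.0122), against -1.74 ± 0.70 with adjusted p = 0.0893 in the WT set, where KO 2 stood close to WT 1. The CreCtrl call was lost without CreCtrl 1, CreCtrl 2 or KO 2, and the set-adjusted call without the WT set or without the CreCtrl set. Of 12 other class I genes, 5 were called lower and 2 higher in the set-adjusted fit, beside 19.6% and 21.0% of all genes tested. H2-Q4, H2-Q6 and H2-Q7, non-classical heavy chains, fell (-2.64 ± 0.28, -1.94 ± 0.29 and -1.87 ± 0.43), as did the further heavy chains H2-T22 and H2-M3. Canx, the chaperone calnexin of the endoplasmic reticulum, rose (0.52 ± 0.14 with adjusted p = 0.0086), and so did Pdia3, another chaperone, named like H2-T22 and H2-M3 after its value was seen. The median log2 fold change of the 12 was -0.20, beside -0.96 for the 11 class I genes above and 0.01 for all genes.

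MHC class II genes had the largest median change of the 3 groups, -3.56 against WT, -0.90 against Ctrl and -2.78 against CreCtrl on the log2 scale. H2-Aa, H2-Ab1 and H2-Eb1 encode chains of the class II molecules, Cd74 the invariant chain that guides them, H2-DMa part of the molecule that edits their peptides, and Ciita the transactivator of the whole group. H2-Aa had 281, 217 and 243 CPM in WT against 29.0, 19.4 and 19.9 in the KO of that set, 119 and 33.3 in Ctrl against 7.17 and 59.2 in KO, and 55.0 and 102 in CreCtrl against 6.32 and 15.9 in KO. Cd74 had 625, 549.9 and 531 CPM in WT against 80.0, 36.5 and 44.3 in the KO of that set, 322 and 106 in Ctrl against 21.98 and 204 in KO, and 130.4 and 271 in CreCtrl against 21.4 and 34.8 in KO. In the WT and CreCtrl sets all KO libraries were far below all controls for each of the 6 genes. They lay below all controls, by any margin, for 24.5% and 34.9% of all genes tested there. In the Ctrl set, where 22.7% of all genes did so, all 6 overlapped. KO 1 was lowest there, and KO 2 lay between Ctrl 1 and Ctrl 2 or above both. Of the 6, 5 fell against WT, with log2 fold changes from -3.63 ± 0.21 for H2-Eb1 to -3.38 ± 0.27 for H2-Ab1, and Ciita had -2.66 ± 0.95 with adjusted p = 0.0595. All 6 fell against CreCtrl, from -3.43 ± 0.71 for Ciita to -1.89 ± 0.40 for H2-DMa, and 0 of 6 were called against Ctrl. Of all genes tested, 19.0% fell against WT and 12.2% against CreCtrl, and 0 of 15287 were called against Ctrl.

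In the set-adjusted fit all 6 were called lower, beside 19.6% of all genes tested. H2-Aa fell to 15.6% of the control (log2 fold change -2.68 ± 0.51 SE, edgeR adjusted p = 0.0015), H2-Ab1 to 18.1%, H2-Eb1 to 16.1%, Cd74 to 16.5% and H2-DMa to 22.2%. Ciita, with 0.0652 to 10.3 CPM the lowest of the 37 genes per kilobase, fell to 22.3% (-2.17 ± 0.81 with adjusted p = 0.0455), a call lost under 10 of the 14 single-library omissions. Without the WT set none of the 6 was called (1000 of all 15232 genes were lower), and H2-Aa had -2.04 (adjusted p = 0.143). Leaving out KO 2 of the Ctrl set gave -3.27 for H2-Aa and -3.23 for Cd74 in the set-adjusted fit.

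The summed level of the 6 class II genes was 1494, 1223 and 1260.5 CPM in WT and 169, 114 and 96.8 in the KO of that set. It was 653 and 212 in Ctrl and 42.8 and 398 in KO, and 301 and 595 in CreCtrl and 48.5 and 84.0 in KO. KO 2 of the Ctrl set, at 398 CPM, was the highest of the 7 KO libraries for each of the 6 genes and above Ctrl 2 in the sum. In bulk libraries, fewer cells of a type and less RNA per cell cannot be told apart.

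Markers of myeloid cells moved with these sums in the WT and CreCtrl sets. In the Ctrl set 0 of 14 myeloid markers were called, where 0 of all 15287 genes were, and 11 of the 14 had a positive log2 fold change. The median of the 14 there was 0.20, beside -0.90 for the class II genes. Of the 14, 13 were called lower in the WT set and 12 in the CreCtrl set, beside 19.0% and 12.2% of all genes tested. Csf1r, the receptor for colony-stimulating factor 1, was the exception: it was the 1 myeloid marker called higher in the WT set, and because it made up most of the sum in 6 of the 7 KO libraries, the sum is also given without it, a choice made after the values were seen. With Csf1r the sum was 1001 to 3387 CPM in the 7 controls and 790.0 to 3058 CPM in the 7 KO libraries. Without it the sum was 1584, 2898 and 1964 CPM in WT and 278, 135 and 101 in KO, 1126 and 626 in Ctrl and 136 and 2362 in KO, and 386 and 846 in CreCtrl and 47.5 and 88.5 in KO. KO 2 of the Ctrl set again stood far above the other 6 KO libraries, which held 47.5 to 278 CPM. Class II over this myeloid sum was 0.338 to 0.943 in the controls and 0.168 to 1.02 in the KO libraries, so that the ratio overlapped between genotypes. In the CreCtrl set it was higher in both KO libraries than in both controls, and in the Ctrl set lower. The part of myeloid cells in the class II result was not tested.

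Dendritic and lymphoid markers were scarce throughout. The 6 dendritic cell markers summed to 15.8 to 51.4 CPM in the controls and 5.12 to 43.0 CPM in KO, and in each KO library of the WT set the 3 markers Flt3, Xcr1 and Cd209a were at 0, which with 3 counts allows at most 0.201 to 0.210 CPM and covers counting error only. The 8 markers of T, NK and B cells summed to 4.39 to 20.6 CPM in the controls and 0.799 to 7.82 CPM in KO. Of 10 other class II genes, 9 passed the filter in the set-adjusted fit and 3 were called lower there, beside 19.6% of all genes tested. These 3 were H2-Ob, which limits peptide exchange (-3.21 ± 0.54 with adjusted p = 0.000683), H2-DMb2, the partner of H2-DMa (-3.42 ± 1.04 with adjusted p = 0.0179), and Ctss, the protease that trims the invariant chain (-2.26 ± 0.80 with adjusted p = 0.0371). Rfx5, Rfxap and Rfxank, whose products bind class II promoters in all cells, were not called in any comparison, and Rfxap, next in order of its p-value, had 0.36 ± 0.16 with adjusted p = 0.0891.

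**Figure D3:**
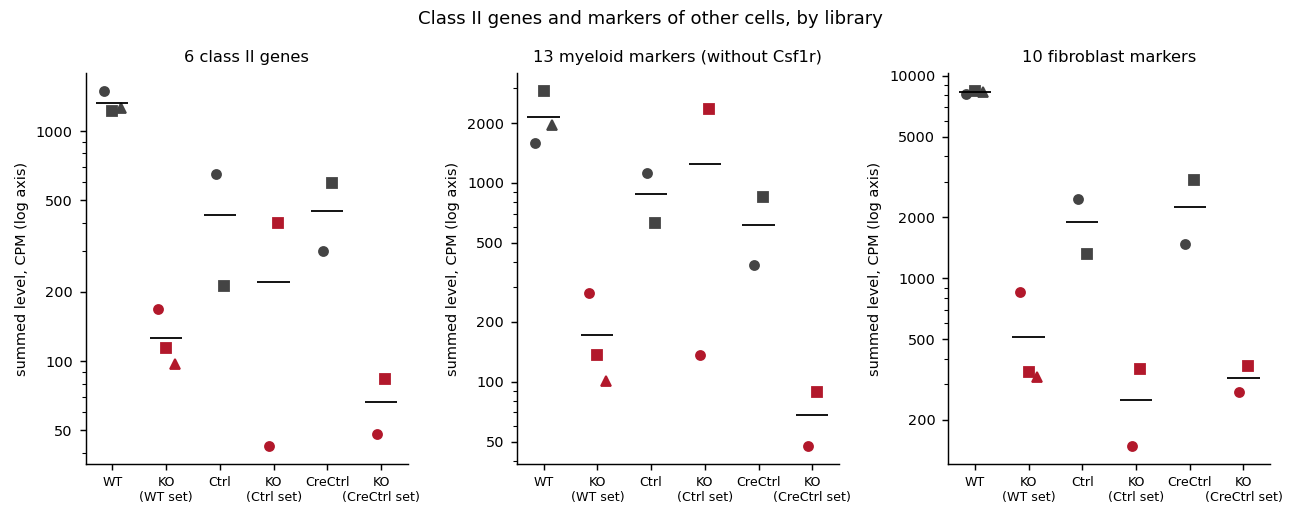
Summed level of the 6 class II genes, of 13 myeloid markers without Csf1r and of 10 fibroblast markers in each library (CPM, log axis). Grey symbols are control and red symbols KO libraries, circles, squares and triangles are replicates 1, 2 and 3, and bars are group means. KO 2 of the Ctrl set (red square) is among the controls for class II genes and above both Ctrl libraries for myeloid markers, but below the controls of its set for fibroblast markers.

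The 20 interferon response genes did not move together. In the set-adjusted fit 8 fell (Stat2, Irf1, Ifit2, Isg15, Oasl2, Ifitm3, Parp12 and Parp14), 2 rose (Ifit3 and Bst2) and 10 were not called. Their median log2 fold change was -0.37, beside 0.01 for all genes. In the separate sets 8 fell and 2 rose against WT, 5 fell and 0 rose against CreCtrl, and 0 were called against Ctrl. Of all genes tested, 19.6% fell and 21.0% rose in the set-adjusted fit, 19.0% and 16.1% against WT, and 12.2% and 3.60% against CreCtrl. Without the WT set the set-adjusted fit called Irf1, Oasl2 and Ifitm3 and no other of the 20.

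Irf1, a transcription factor induced by interferon-gamma that acts on class I genes (chr11:53770014-53778374), had the largest fall of the 20 in the set-adjusted fit. It had 290.3, 179 and 222 CPM in WT against 99.6, 45.6 and 35.7 in the KO of that set, 160.1 and 175 in Ctrl against 14.9 and 41.2 in KO, and 136 and 99.5 in CreCtrl against 21.1 and 28.7 in KO. Every KO library was below every control of its set and also below the lowest of all 7 controls except KO 1 of the WT set, which at 99.6 CPM was level with CreCtrl 2 at 99.5 CPM. The KO level was 21.2% of the control (log2 fold change -2.24 ± 0.27 SE, edgeR adjusted p = 5.84e-05), with -2.07 ± 0.37, -2.58 ± 0.50 and -2.27 ± 0.23 for WT, Ctrl and CreCtrl as control, of which that for Ctrl was not called (adjusted p = 0.119). Stat2, Irf9 and Irf7 carry the response to type I interferons, Stat2 and Irf9 together in the ISGF3 complex. Stat2 fell in the WT set (-0.78 ± 0.13 with adjusted p = 0.00224) and the CreCtrl set (-0.70 ± 0.19 with adjusted p = 0.0485) and had 0.25 ± 0.23 with adjusted p = 0.838 in the Ctrl set. The CreCtrl call was lost under 3 of the 4 single-library omissions (CreCtrl 2, KO 1 or KO 2) and the set-adjusted call under 7 of 14. Irf9 and Irf7 were not called, with set-adjusted values of -0.14 ± 0.17 and -0.34 ± 0.23.

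The effectors Ifitm3, Oasl2 and Parp14 fell in both the WT and CreCtrl sets. Among them only Ifitm3 kept its call against CreCtrl under every alternative. Leaving out 1 library of the CreCtrl set gave -1.78 to -1.42 for Ifitm3 there, -2.16 to -1.17 for Oasl2 and -2.18 to -1.01 for Parp14. Ifitm3, which blocks the entry of viruses into cells, had 156, 205 and 166 CPM in WT against 58.0, 37.3 and 37.2 in the KO of that set, 73.6 and 62.6 in Ctrl against 19.95 and 25.0 in KO, and 46.7 and 60.4 in CreCtrl against 17.4 and 18.9 in KO. Its values did not overlap in any set, and its log2 fold change was -2.13 ± 0.21 against WT, -1.59 ± 0.19 against CreCtrl and -1.60 ± 0.25 with adjusted p = 0.109 against Ctrl, where it was not called. Oasl2, a relative of the oligoadenylate synthetases that sense double-stranded RNA, had 38.3, 59.1 and 41.5 CPM in WT against 13.3, 18.0 and 3.07 in the KO of that set, 21.7 and 40.6 in Ctrl against 10.2 and 9.84 in KO, and 8.72 and 17.5 in CreCtrl against 4.63 and 3.44 in KO. The KO level was 27.7% of the control (log2 fold change -1.85 ± 0.32 SE, edgeR adjusted p = 0.000825). Parp14, an ADP-ribosyltransferase, had a set-adjusted log2 fold change of -1.26 ± 0.22 with adjusted p = 0.00101, and its relative Parp12 -0.50 ± 0.13 with adjusted p = 0.0074. Isg15, a ubiquitin-like modifier, had 16.8, 19.1 and 7.68 CPM in WT against 7.35, 1.75 and 3.74 in the KO of that set, 7.24 and 6.54 in Ctrl against 5.22 and 1.91 in KO, and 3.34 and 4.63 in CreCtrl against 2.97 and 1.70 in KO. All KO libraries were below their controls, at low counts, with -1.28 ± 0.37 with adjusted p = 0.0137 in the set-adjusted fit and -0.81 ± 0.43 with adjusted p = 0.21 against CreCtrl. The call of Isg15 against WT was lost without WT 1, WT 2, or KO 2 or KO 3 of that set.

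Bst2 and Ifit3 rose. Bst2 encodes tetherin, which holds budding viruses at the cell surface, and lies at chr8:71534255-71537456. It had 53.4, 47.9 and 48.5 CPM in WT against 145, 147.5 and 166 in the KO of that set, 68.9 and 34.0 in Ctrl against 109 and 62.2 in KO, and 66.1 and 52.3 in CreCtrl against 76.2 and 85.0 in KO. The KO libraries were above the controls in the WT and CreCtrl sets and overlapped with them in the Ctrl set, where Ctrl 1 and KO 2 were close. Its KO level was 1.99 times the control (log2 fold change 0.99 ± 0.21 SE, edgeR adjusted p = 0.0026), most of it in the WT set (1.47 ± 0.12 with adjusted p = 6.31e-05), and it was not called against CreCtrl (0.41 ± 0.17 with adjusted p = 0.123). Ifit3, which binds viral RNA in complex with Ifit1 and Ifit2, had 59.0, 60.8 and 40.4 CPM in WT against 97.0, 118 and 79.4 in the KO of that set, 52.1 and 54.4 in Ctrl against 192 and 57.0 in KO, and 68.5 and 73.9 in CreCtrl against 72.0 and 134 in KO. The highest value, 192 CPM, was in KO 1 of the Ctrl set, and the call in the set-adjusted fit (0.84 ± 0.24 with adjusted p = 0.0122) was kept without that library, at 0.58. Its call against WT was lost without WT 3 or KO 2. Reads of Ifit3 and of its near-identical neighbour Ifit3b could have been lost or split between them.

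The 3 Ifit genes lie close together on chromosome 19 (Ifit2 at chr19:34550694-34576419, Ifit3 at chr19:34583531-34588731 and Ifit1 at chr19:34640871-34650009) and differed in direction. Ifit2 was called lower (set-adjusted -0.66 ± 0.24 with adjusted p = 0.0369), a call lost under 9 of the 14 single-library omissions, Ifit3 was called higher, and Ifit1 was not called (0.21 ± 0.46 with adjusted p = 0.747). Ifit1 had 23.5, 17.6 and 11.7 CPM in WT against 10.5, 25.2 and 10.5 in the KO of that set, 15.9 and 43.0 in Ctrl against 71.0 and 10.7 in KO, and 13.6 and 17.02 in CreCtrl against 6.61 and 41.7 in KO. KO 1 of the Ctrl set and KO 2 of the CreCtrl set were above their controls, and their partner KO libraries below.

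Ddx58, Ifih1, Usp18, Rsad2, Oas1a, Xaf1 and Ifi35 were not called in any comparison. Ddx58, which encodes the RNA sensor RIG-I, had 43.6 to 55.0 CPM in the 7 controls and 44.6 to 77.3 CPM in the 7 KO libraries, and Ifih1, which encodes the RNA sensor MDA5, had 14.9 to 26.7 and 10.9 to 27.5 CPM. Usp18, which removes ISG15 from proteins and dampens the type I response, had 5.26 to 10.8 CPM in the controls and 3.76 to 25.8 CPM in KO. Rsad2, the antiviral enzyme viperin, and Oas1a were at 0.0668 and 0 CPM in KO 3 of the WT set, where 3 counts are 0.201 CPM, and their standard errors in that set exceeded 1 on the log2 scale. Xaf1 and Ifi35 had set-adjusted values of -0.07 ± 0.18 and -0.05 ± 0.14.

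**Figure D4:**
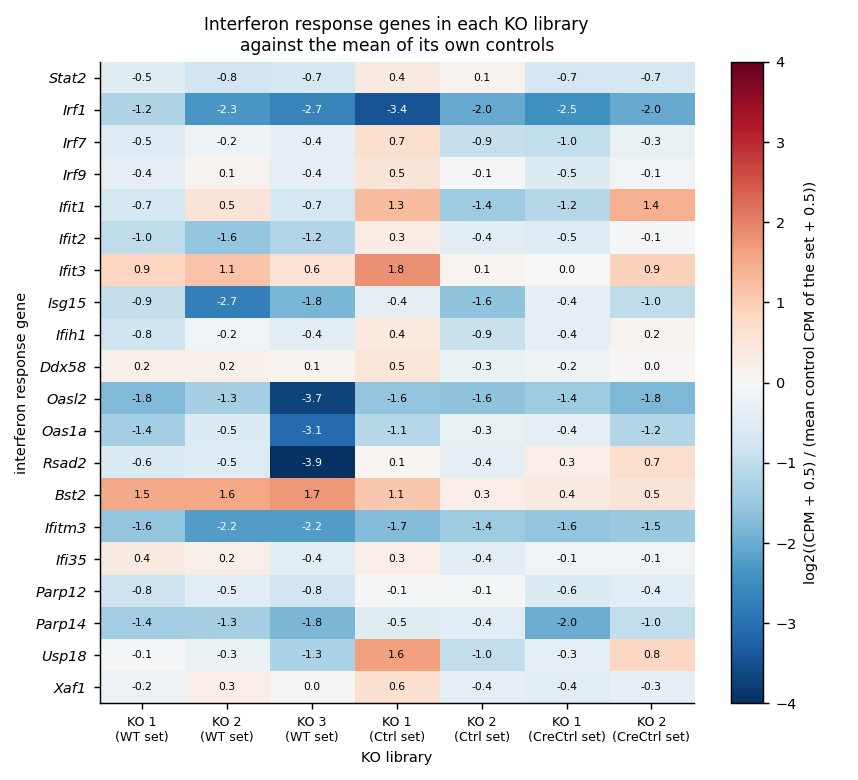
Log2 ratio of each KO library to the mean of the controls of its own set for the 20 interferon response genes (0.5 CPM added to both). Blue is lower and red higher in KO. Irf1, Oasl2 and Ifitm3 are blue in all 7 columns, Ifit3 and Bst2 are not blue in any, and KO 1 of the Ctrl set is red for genes such as Ifit1, Ifit3, Usp18 and Irf7 that are blue or pale in its partner KO 2.

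The 2 KO libraries of the Ctrl set differed from each other in these genes. KO 1 of the Ctrl set was the highest of the 7 KO libraries for 11 of the 20 genes, and its median shift from its own controls was 0.34 on the log2 scale, against -0.41 in KO 2 of that set and -0.74 to -0.22 in the other 5. Irf7 had 31.4 CPM in KO 1 and 10.3 CPM in KO 2, against 15.5 and 24.2 CPM in Ctrl. The same library was the lowest of the 7 for 3 of the 6 class II genes and for 4 of the 11 class I genes, and its class II genes had a median shift of -3.24. KO 2 of the Ctrl set had the highest class II values and the lowest value of 6 of the 20 interferon response genes, as many as KO 1 of the CreCtrl set.

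Interferons themselves were hardly detected. Of 9 interferon genes, Ifna1, Ifna4, Ifne and Ifnk had 0 counts in all 14 libraries, which at 3 counts allows 0.104 to 0.258 CPM in a library. Ifnb1 had at most 12 counts, in KO 2 of the WT set, and Ifng, the interferon of T and natural killer cells, at most 20 counts, in WT 3. None passed the filter of the set-adjusted fit.

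Interferon receptors and signalling genes were mostly lower in KO. Of 20 genes outside the 37, 13 fell in the set-adjusted fit, 14 fell against WT, 5 against CreCtrl and 0 against Ctrl. Of all genes tested, 19.6%, 19.0%, 12.2% and 0% fell in these comparisons. The median log2 fold change of the 20 was -0.60 in the set-adjusted fit, beside 0.01 for all genes. By smallest adjusted p these were Socs3 (-3.23 ± 0.36 with adjusted p = 3.85e-05) and Socs1 (-1.99 ± 0.28 with adjusted p = 0.000224), which inhibit cytokine receptors and are induced by the signals they block, Ifngr1, a chain of the interferon-gamma receptor (-0.81 ± 0.12 with adjusted p = 0.000316), and the kinase Jak1 (-0.62 ± 0.11 with adjusted p = 0.000917). Socs3 had 1112, 624 and 727 CPM in WT against 158, 79.4 and 78.3 in the KO of that set, 421 and 771 in Ctrl against 17.3 and 88.1 in KO, and 325 and 299 in CreCtrl against 18.4 and 47.7 in KO.

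Other interferon-stimulated genes moved in both directions. Of 28, 27 passed the filter in the set-adjusted fit. Among the 27, 9 fell and 3 rose (19.6% and 21.0% of all genes tested) and 15 were not called, with a median of -0.32. The 4 with the smallest adjusted p were Gbp2, a guanylate-binding protein (-2.05 ± 0.22 with adjusted p = 2.71e-05), Samhd1, which depletes nucleotides that viruses need (-1.94 ± 0.21 with adjusted p = 2.95e-05), Sp100, a protein of nuclear bodies (-2.41 ± 0.44 with adjusted p = 0.00115), and Ifi203 (-2.21 ± 0.41 with adjusted p = 0.00129). Gbp3, Lgals3bp and Ifi27 rose (0.90 ± 0.18, 0.95 ± 0.20 and 0.64 ± 0.19), and are named because they were the only 3 called higher.

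The summed markers of fibroblasts, of endothelial cells, and of pericytes and smooth muscle were lower in KO in every set, as were interferon response genes such as Irf1 and Ifitm3. Of the fibroblast markers, 10 of 10 were called lower in the WT set and 9 of 10 in the CreCtrl set, beside 19.0% and 12.2% of all genes tested. They summed to 148.8 to 355.0 CPM in the KO libraries of the Ctrl set against 1319 and 2454 CPM in Ctrl. Endothelial markers summed to 160.3 to 701 CPM in the 7 controls and 46.2 to 197 CPM in KO, and pericyte and smooth muscle markers to 535 to 2362 CPM and 327 to 492.7 CPM. Of the 7 markers in this last list, 4 were called lower and 1, Cspg4, higher in the set-adjusted fit (19.6% and 21.0% of all genes tested). Melanocyte and Schwann cell markers overlapped, at 728 to 1486.5 CPM in the 7 controls and 531 to 947 CPM in KO. Rod photoreceptor markers overlapped too, at 59.1 to 4637 CPM and 402 to 2061 CPM. The part of these cell types in the falls of Irf1, Ifitm3, Socs3 and the class I genes was not tested. Nor was the part of RPE content in the rises of Bst2, Ifit3, Canx, Pdia3, Gbp3, Lgals3bp and Ifi27.

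The promoters of these genes were searched for 2 sequence motifs in RefSeq windows of 300 bases (GRCm38.p6), which run from 250 bases before to 50 bases after the transcription start. Of the 37 genes 30 were in that table. The core of the interferon-stimulated response element, bound by ISGF3 and IRF factors, was written as GAAA, any 2 bases and GAAA again, on either strand, and the core of the gamma-activated site, bound by STAT factors, as TTCNNNGAA. The first motif was in 12 of the 30 (40.0%) and in 3.99% of 27025 genes with a window, and TTCNNNGAA in 7 of the 30 (23.3%) and in 9.55% of all. A promoter with several matches counted once. The interferon-stimulated response element core was in 10 of 18 interferon response genes, 2 of 9 class I genes and 0 of 3 class II genes. A match is a run of letters and no evidence that a factor binds there.

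The stretches around the match nearest to the start are given for genes that moved differently while holding the same motif, 5′ to 3′ on the strand of the gene, with the matches to the first motif that lie whole within the stretch, on either strand, in capitals. They are from Ifit1 (chr19:34640794-34640823, plus strand, match from 85 bases before the start), Ifit3 (chr19:34583397-34583426, plus strand, from 122 bases before), Bst2 (chr8:71537577-71537606, minus strand, from 124 bases before), Isg15 (chr4:156200865-156200894, minus strand, from 66 bases before), Rsad2 (chr12:26456553-26456582, minus strand, from 120 bases before), B2m (chr2:122147538-122147567, plus strand, from 139 bases before) and H2-T23 (chr17:36032806-36032835, minus strand, from 124 bases before).
Ifit1: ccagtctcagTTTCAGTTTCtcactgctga
Ifit3: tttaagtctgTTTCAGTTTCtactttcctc
Bst2: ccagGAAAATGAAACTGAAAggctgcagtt
Isg15: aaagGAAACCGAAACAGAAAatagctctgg
Rsad2: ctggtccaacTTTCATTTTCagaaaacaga
B2m: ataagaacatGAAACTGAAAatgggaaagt
H2-T23: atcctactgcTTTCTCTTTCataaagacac

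In Bst2 and Isg15 the capitals are 2 overlapping matches, a further match of Isg15 begins before its stretch, and positions are those of the first base of the match nearest to the start. The match shown for Ifit1 has the same letters as that for Ifit3, and of the pair only Ifit3 was called. Bst2 rose and Isg15 fell, while B2m was not called and H2-T23 fell. By call in the set-adjusted fit, the motif was in 4 of 17 genes that fell, 2 of 2 that rose and 6 of 11 that were not called. For TTCNNNGAA the stretches shown are of Irf1 (chr11:53769914-53769942, plus strand, from 90 bases before the start) and Psmb8 (chr17:34198088-34198116, plus strand, from 97 bases before), the 2 genes with the largest falls among those that held it, with the match in capitals.
Irf1: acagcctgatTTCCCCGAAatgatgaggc
Psmb8: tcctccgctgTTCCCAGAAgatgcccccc

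The effect of the KO was also compared between the sets, by a test of the difference itself in a fit of all 14 libraries. Of the 37 genes 0 differed between the WT and Ctrl sets (5.15% of 17662 genes did), 0 between the WT and CreCtrl sets (1.49%), and 0 between the CreCtrl and Ctrl sets (0%). At an unadjusted p under 0.05 the counts were 11, 3 and 1, and 21.4%, 14.9% and 8.75% of all genes. The largest of the 11 differences was that of H2-DMa, with -3.06 ± 0.92 on the log2 scale, a larger fall in the WT set (edgeR adjusted p = 0.0716), and the smallest adjusted p was that of Stat2 (-0.90 ± 0.25, adjusted p = 0.0528). DESeq2 called 3 of the 37 for the first contrast (9.91% of 16672 genes), and 0 for each of the other 2 (6.99% and 0.822%). These calls depend on single libraries of the Ctrl set: without its KO 1, 6 were called (H2-D1, H2-Aa, H2-Ab1, H2-Eb1, H2-DMa and Cd74, with 4.50% of all genes), and without Ctrl 1, 2 (H2-DMa and Stat2, with 7.58%).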

How the data were processed

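RPE was detached with trypsin, and poly(A) RNA was sequenced as stranded paired-end libraries. The authors deposited raw counts per gene, with no normalization. The submitters' processing notes name bcl2fastq 2.19, STAR 2.5.2, Cufflinks 2.1.1 and HTSeq 0.11.2 with GRCm38. The strand setting of the count and the annotation release are not given in the sources used here. Total counts per library were 9828293 to 32384166.

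Counts were tested with edgeR 4.0.16 in R 4.3.3 (TMM, filterByExpr, quasi-likelihood test, Benjamini-Hochberg adjustment over all genes tested, threshold 0.05), within each set and over all 14 libraries with the set as covariate. Values after ± are approximate standard errors, computed as the absolute log2 fold change divided by the square root of the F statistic of the test. Control genotype and set cannot be told apart. CPM and CPM per kilobase of union exon length were computed for description only. DESeq2 1.42.0, RLE size factors, library size alone, other count filters, a replicate block, a joint fit and omission of libraries or sets were the alternatives. On simulated counts with 200 genes changed 4-fold, edgeR recovered 122, 92 and 139 genes in the WT, Ctrl and CreCtrl designs and 139 in the set-adjusted design. False calls among the unchanged genes numbered 6, 17 and 19 in the WT, Ctrl and CreCtrl designs and 5 in the set-adjusted design. DESeq2 recovered 151, 133, 148 and 156 genes in the same 4 designs. Its false calls were more, at 50, 66, 38 and 45, so its calls against Ctrl are less certain.

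The genes and lists were chosen with earlier results of these data known. Named were all 37 genes, Clic4, Psmb5, Psmb6, Psmb7 and, from each further pathway list, up to 4 genes with the smallest set-adjusted p. Others are said to be named after their values were seen. The result of 1 gene of the signalling list is not reported here. Each library is 1 mouse, so the spread is that between mice.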

Additional observations from a re-analysis of the deposited data

Results flagged for a closer look

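Each of the 37 genes was examined over the 7 KO libraries for 1 library standing far from the other 6 by Dixon's ratio, and 11 genes had such a library. For independent genes with normally distributed values, chance alone gives about 1 in 20. CPM were used without a log transform, and genes that move together, such as the class II genes, are not independent. The 7 KO libraries come from 3 sets, which the ratio does not take into account.

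In 7 of the 11 the library was KO 2 of the Ctrl set. It was high for B2m, at 1425 CPM against 598 to 738 CPM in the other 6, and for all 6 class II genes. H2-Aa had 59.2 CPM there against 6.32 to 29.0, H2-Ab1 73.0 against 6.00 to 33.0, and H2-Eb1 49.5 against 6.13 to 24.6. H2-DMa had 8.05 CPM against 1.20 to 2.61, Cd74 204 against 21.4 to 80.0, and Ciita 3.40 against 0.0652 to 1.40. The summed myeloid markers without Csf1r were 2362 CPM in the same library and 47.5 to 278 CPM in the other 6, and their part in these values was not tested.

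The other 4 were single genes in 3 libraries. In KO 1 of the Ctrl set, Ddx58 had 77.3 CPM against 44.6 to 54.8 and Usp18 25.8 CPM against 3.76 to 10.2. In KO 1 of the WT set Irf1 had 99.6 CPM against 14.9 to 45.6, and in KO 2 of that set Psmb10 had 24.9 CPM against 9.795 to 15.4.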

How the results depend on the processing

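No called gene reversed its direction under any alternative. Of the 37 genes, those called higher against WT went from 2 to 1 with library sizes alone and with all 14 libraries in 1 fit. Against Ctrl, genes called lower went from 0 to 8 with every gene of at least 1 count kept, to 4 with DESeq2 and to 3 with all 14 libraries in 1 fit, and genes called higher to 1 with the first of these. Against CreCtrl, 17 lower became 4 with all 14 libraries in 1 fit, and 0 higher became 2 with every gene of at least 1 count kept. In the set-adjusted fit, 23 lower and 2 higher became 8 and 0 without the WT set, and 2 higher became 1 with library sizes alone, where Ifit3 lost its call. Genes whose KO effect differed between the WT and Ctrl sets went from 0 to 1 with RLE size factors, 1 with library sizes alone, 8 with every gene of at least 1 count kept, 2 with at least 10 counts in every library and 3 with DESeq2. With every gene of at least 1 count kept, 1 differed between the WT and CreCtrl sets and 5 between the CreCtrl and Ctrl sets. The cause was not tested.

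Leaving out 1 library at a time gave 19 to 21 lower and 1 to 2 higher against WT, where the 1 came without WT 3 or KO 2. Against Ctrl it gave 0 to 1 lower, the 1 being Oasl2 without Ctrl 1, and 0 higher. Against CreCtrl it gave 9 to 17 lower, 9 without CreCtrl 2, and 0 to 2 higher, 1 without CreCtrl 1 and 2 without KO 1. The set-adjusted fit gave 19 to 23 lower and 2 higher. For the difference between the WT and Ctrl sets it gave 0 to 6, with 6 without KO 1 and 2 without Ctrl 1 of the Ctrl set and 1 without CreCtrl 1 or CreCtrl 2, and for the other 2 differences 0.

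Same-numbered samples did not deviate together, with correlations of -0.02, 0.07 and 0.18 among WT and KO, -0.01 among Ctrl and KO and 0.13 among CreCtrl and KO, so the numbers were not taken as pairs. With the replicate block, 21 of the 37 genes were lower against WT, 0 against Ctrl, 18 against CreCtrl and 20 in the set-adjusted fit, and 2, 0, 0 and 2 higher. Over all genes the block gave 4857 calls against WT where the fit without it gave 5419, 113 where it gave 0 against Ctrl, 3824 where it gave 2529 against CreCtrl and 5200 where it gave 6057 set-adjusted. Scaling by library size alone moved the median of all genes to -0.32, -0.11, -0.24 and -0.24 in the 4 comparisons, and lower genes among those called from 54.1% to 69.7% against WT, from 77.3% to 92.6% against CreCtrl and from 48.3% to 74.3% set-adjusted.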
